A study of Mus musculus with 18 samples.

Results

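Primitive erythroid cells are the first red blood cells of the mouse embryo, and they are described here in single-cell RNA data of E8.5 embryos that lack a DNA methyltransferase. A cell was counted as primitive erythroid if Hbb-y, Hbb-bh1, Hba-x, Hba-a1 and Hba-a2 together made up at least 5% of its mouse UMIs, where a UMI is a unique molecular identifier and stands for 1 captured RNA molecule. Of 119732 cells with at least 1500 mouse UMIs, 11485 (9.59%) met this rule. They comprised 4823 cells from 7 WT embryos, 85 from 3 Dnmt1 KO embryos, 3830 from 4 Dnmt3a KO embryos and 2747 from Dnmt3b KO embryos. Since globin UMIs chose the cells, the share of such cells and the globin values below are given as a description, without a test.

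The WT, Dnmt1 null, Dnmt3a null and Dnmt3b null embryos all carried the strain background 129S4/SvJae and came from matings of heterozygous mice, so each null is constitutive and present in every cell of the embryo. Each of the 18 libraries was made from a single dissociated embryo with the 10x Genomics 3' v3 chemistry. Tissue of the ectoplacental cone was used for genotyping, and how much yolk sac was kept is not given in the sources used here. Libraries 1 and 2 of Dnmt3b KO shared 9149 cell barcodes, 80.4% of the cells of the first and 83.1% of the second, whereas the next of the 153 pairs of libraries shared 43. They were therefore counted as 1 library (Dnmt3b KO 1+2), with 1095 primitive erythroid barcodes found in both and 1410 distinct ones, which leaves 17 independent libraries and 3 for Dnmt3b KO. The UMI counts of a shared barcode differed by a median of 10478. The median counts of the cells outside the rule were 10291 and 10813 in Dnmt3b KO 1 and 2. Whether a shared barcode is the same cell was not tested. By Y-linked transcripts, WT 2 and every KO library but Dnmt3b KO 12 were male, and sex is therefore unevenly spread over the groups. The Dnmt3a transcript went against the labels of 2 Dnmt3b KO libraries, which name only a Dnmt3b null. In the cells outside the rule it stood at 28.6 to 36.4 CPM in WT, at 8.996 to 12.5 CPM in Dnmt3a KO and at 35.7, 16.1 and 8.63 CPM in the libraries labelled Dnmt3b KO 1+2, 11 and 12. The library labelled Dnmt3b KO 12 thus lay below every Dnmt3a KO library and the library labelled Dnmt3b KO 11 between Dnmt3a KO and WT, and the cause was not tested. Libraries are named below as they are labelled, and Dnmt3b KO results are also given without these 2 libraries. The primitive erythroid cells of a library held between 435190 UMIs in Dnmt1 KO 2 and 56981844 in WT 1. Levels below are given as CPM, the UMIs of a gene per 1000000 UMIs of the primitive erythroid cells of a library outside the 5 globin genes of the rule, and groups were compared over libraries, never over cells.

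Primitive erythroid cells arise in the blood islands of the yolk sac and enter the circulation while they still hold a nucleus. They fill with haemoglobin made of embryonic chains, the beta-like chains of Hbb-y and Hbb-bh1 and the alpha-like chain of Hba-x, beside the alpha chains of Hba-a1 and Hba-a2 that persist in adult red cells. GATA1, TAL1 and KLF1 switch on the globin, heme and membrane genes of these cells. DNMT1 copies DNA methylation onto newly made strands and DNMT3A and DNMT3B place it on unmethylated DNA, and germline genes with CG-rich promoters are among the best known genes that methylation keeps silent.

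The promoters of 3 globin genes of the rule, of Alas2, the first enzyme of heme synthesis, and of Klf1 are shown as examples of the globin, heme and regulator genes whose levels are given below. Each is the 160 bases directly before the RefSeq transcript start on build GRCm38.p6, read 5′ to 3′ on the strand of the gene. Capitals mark every match, on either strand, to AGATAA, a form of the GATA motif, to the KLF motif CCACCC or to the CCAAT box. Hbb-y lies at chr7:103853208-103853367 on the minus strand, Hba-x at chr11:32276440-32276599, Hba-a1 at chr11:32283512-32283671, Alas2 at chrX:150547257-150547416 and Klf1 at chr8:84901822-84901981, all of these on the plus strand.
Hbb-y: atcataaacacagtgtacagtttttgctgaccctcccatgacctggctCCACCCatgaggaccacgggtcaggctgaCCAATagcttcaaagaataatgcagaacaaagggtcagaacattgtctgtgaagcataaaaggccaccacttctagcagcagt
Hba-x: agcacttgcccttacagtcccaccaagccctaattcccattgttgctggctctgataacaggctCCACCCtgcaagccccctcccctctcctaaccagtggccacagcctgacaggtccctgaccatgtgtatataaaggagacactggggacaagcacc
Hba-a1: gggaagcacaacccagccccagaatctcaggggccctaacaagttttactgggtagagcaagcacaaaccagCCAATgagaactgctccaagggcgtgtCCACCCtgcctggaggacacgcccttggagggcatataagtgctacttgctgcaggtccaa
Alas2: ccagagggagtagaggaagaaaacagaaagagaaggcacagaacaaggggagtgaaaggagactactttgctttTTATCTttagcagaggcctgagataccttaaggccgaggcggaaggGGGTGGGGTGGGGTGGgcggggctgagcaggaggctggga
Klf1: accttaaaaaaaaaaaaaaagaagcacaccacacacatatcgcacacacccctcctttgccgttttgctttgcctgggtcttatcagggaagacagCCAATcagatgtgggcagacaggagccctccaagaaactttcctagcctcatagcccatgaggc
CCACCC occurred once in the windows of Hbb-y, Hba-x and Hba-a1, and 3 overlapping matches on the other strand were found before Alas2. CCAAT occurred in the windows of Hbb-y, Hba-a1 and Klf1, and AGATAA in that of Alas2 alone. Other forms of the GATA motif were not marked. TGATAA, which differs from AGATAA in its first base, lies in the window of Hba-x and, on the other strand, in that of Klf1. Among 32817 promoter windows of the same length, 6.02% held the first of these motifs (AGATAA), 20.7% the second (CCACCC), 25.6% the last (CCAAT) and 0.216% all 3. These matches describe the letters of the windows and are not measured binding sites.

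Dnmt1 KO embryos held few cells that met the rule. The share of primitive erythroid cells in WT embryos ran from 3.42% to 19.04% with a median of 6.31%. It was 1.35%, 0.553% and 1.18% in Dnmt1 KO 1, 2 and 3, from 22, 20 and 43 cells. Every Dnmt1 KO library lay below every WT library. The shares were 12.6%, 6.86%, 15.2% and 5.36% in Dnmt3a KO 1, 2, 13 and 14 and 11.2%, 7.33% and 8.53% in Dnmt3b KO 1+2, 11 and 12, all within the WT range. WT embryos averaged 9.33% ± 6.64 (SD, n = 7) and Dnmt1 KO embryos 1.03% ± 0.421 (n = 3). The averages were 10.01% ± 4.67 for the 4 Dnmt3a KO and 9.02% ± 1.98 for the 3 Dnmt3b KO libraries.

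**Figure D1:**
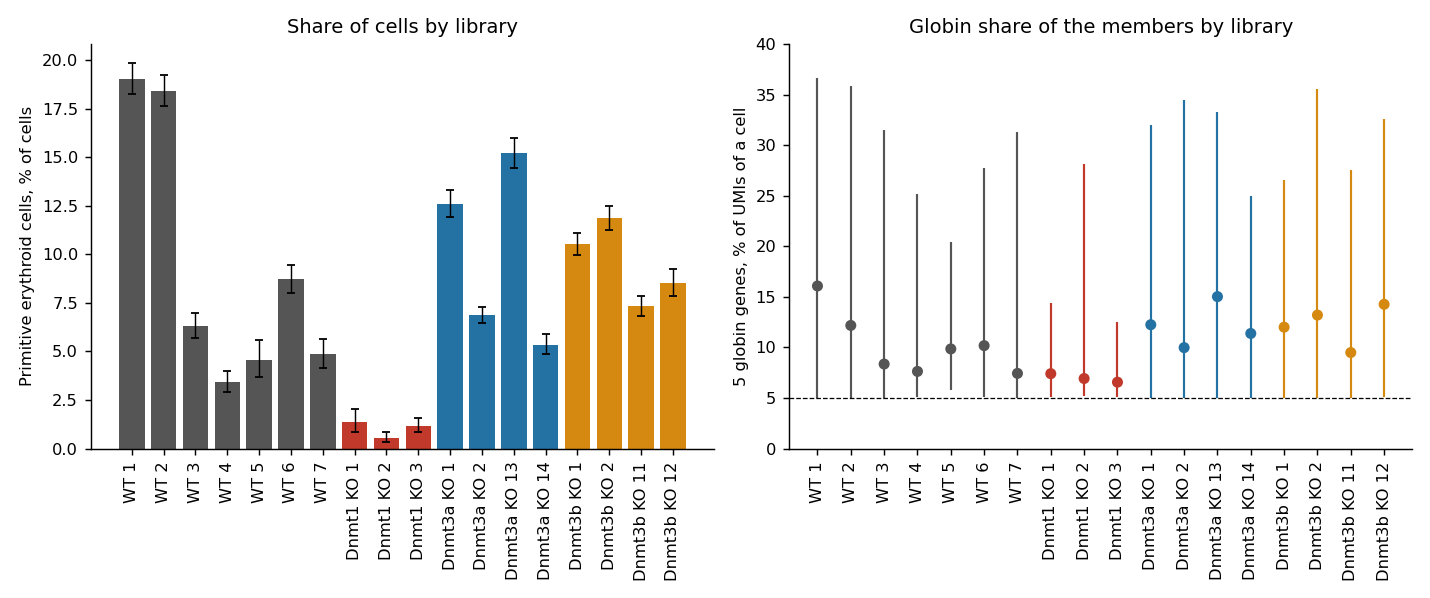
Left, share of cells that met the globin rule in each library (percent, bars) with 95% Clopper-Pearson intervals, which cover counting error only. Right, median (dot) and lowest to highest (line) share of a cell's UMIs from the 5 globin genes in the primitive erythroid cells, with the 5% limit dashed; Dnmt3b KO 1 and 2 are drawn separately. The 3 Dnmt1 KO libraries have shares of 0.553% to 1.35% and medians of 6.56% to 7.40%.

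The globin load of the cells that met the rule lay at or below the lower end of the WT range in Dnmt1 KO. The median share of UMIs from the 5 globins was 7.40%, 6.92% and 6.56% in Dnmt1 KO 1, 2 and 3. It ran from 7.43% to 16.1% in WT. Dnmt3a KO libraries had 9.98% to 15.0% and Dnmt3b KO libraries 9.49% to 14.3%. In Dnmt1 KO 86.4%, 85.0% and 93.0% of the primitive erythroid cells held between 5% and 10% globin, against 13.4% in WT 1, 27.0% in WT 2, 46.5% to 77.9% in WT 3 to 6 and 84.7% in WT 7. Cells just under the limit were a small part beside the primitive erythroid cells of WT 1 but not beside those of Dnmt1 KO. Those with 4 to 5% and with 5 to 6% globin numbered 41 and 36 in WT 1, 49 and 53 in WT 2, and 7 and 5, 19 and 4, and 23 and 15 in Dnmt1 KO 1, 2 and 3. With a limit of 2% the mean share was 2.91% in Dnmt1 KO and 10.8% in WT. The median globin share of all other cells was at most 0.187% in any library. Fewer cells of this type and less globin RNA per cell cannot be told apart in the Dnmt1 KO shares. The study staged Dnmt1 KO embryos, pooled with published CRISPR embryos, by their cell type proportions and reported a minor delay. A difference in stage cannot be told apart from the genotype here or in the gene levels below.

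The 5 globins were mixed in unequal parts. Hba-x led, with 49.6% to 57.9% of the globin UMIs of the rule in WT, 50.2%, 43.6% and 45.1% in Dnmt1 KO 1, 2 and 3, 49.7% to 57.1% in Dnmt3a KO and 48.9% to 65.0% in Dnmt3b KO. Among the alpha-like genes Hba-x held 84.2% to 89.6% in WT and 82.8% to 87.0% in the Dnmt3a KO and Dnmt3b KO libraries, and Dnmt1 KO 2 stood apart at 73.9%. That library rose to 85.8% once the 3 cells described below that carried adult beta globin were left out. Hba-a1 and Hba-a2 share 58.9% and 77.2% of their 90-base transcript windows, so their separate counts are uncertain and they are given only as a sum.

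The balance of the beta-like genes was the globin value that varied most between embryos. Hbb-y as a share of Hbb-y and Hbb-bh1 UMIs ran from 12.7% to 58.0% in WT with a median of 19.2%, and WT 1 at 58.0% stood apart from the next WT library at 27.8%. It was 30.6%, 20.2% and 38.7% in Dnmt1 KO 1, 2 and 3. It was 43.4%, 26.3%, 57.8% and 41.6% in Dnmt3a KO 1, 2, 13 and 14 and 29.1%, 41.9% and 62.9% in Dnmt3b KO 1+2, 11 and 12. All groups overlapped. The mean was 24.4% ± 15.6 (n = 7) in WT, and it was 29.9% ± 9.30 (n = 3), 42.3% ± 12.9 (n = 4) and 44.7% ± 17.1 (n = 3) for Dnmt1, Dnmt3a and Dnmt3b KO. Alpha-like UMIs exceeded beta-like UMIs in each library, by a ratio of 1.40 to 2.20 in WT, of 1.35, 1.43 and 1.10 in Dnmt1 KO 1, 2 and 3, and of up to 2.94 in Dnmt3b KO 11.

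**Figure D2:**
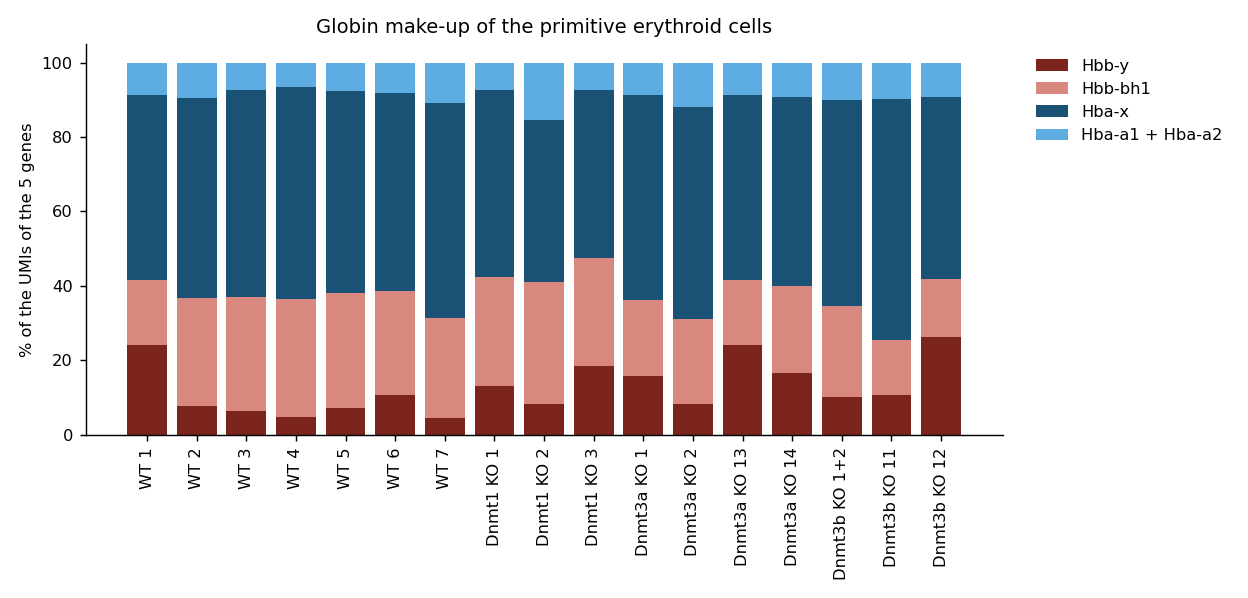
Composition of the 5 globin genes of the rule in the primitive erythroid cells of the 17 independent libraries, in percent of their summed UMIs (stacked bars, 1 bar per library, with Hba-a1 and Hba-a2 as 1 part). Hba-x is the largest part of every bar, and Hbb-y is widest in WT 1, Dnmt3a KO 13 and Dnmt3b KO 12.

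Within an embryo, Hbb-y rose with the globin load of the cell. WT 1, Dnmt3a KO 13 and Dnmt3b KO 12 each had at least 100 cells with 5 to 10%, 10 to 20% and over 20% globin. Over these 3 classes Hbb-y went from 40.4% through 52.4% to 70.4% of the beta-like UMIs in WT 1, from 39% through 55.9% to 70.0% in Dnmt3a KO 13, and from 42.8% through 62.9% to 73.4% in Dnmt3b KO 12. Hba-x moved little, from 86.9% through 85.3% to 83.8% of the alpha-like UMIs in WT 1. The classes were cut from globin itself, so these values are a description.

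Genes outside the rule were ordered along the same scale. Of 13 erythroid regulators with at least 20 CPM, 7 had higher values in each step of all 3 libraries (Gata1, Klf1, Nfe2, Lyl1, Hemgn, Epor and Klf3) and 0 had lower ones. The same held for 10 of 14 genes of heme synthesis, 13 of 17 red cell membrane genes, 3 of 8 genes of iron handling, 5 of 11 antioxidant genes and 3 of 18 G2 and M phase genes. Of all 4346 genes outside the rule at 20 CPM or more, 10.7% rose and 21.7% fell in this way. Alas2 stood at 170, 311 and 414 CPM in the 3 classes of WT 1, and Slc4a1, the band 3 anion exchanger, at 89.6, 217 and 287 CPM. Hemgn, a nuclear regulator of red cell maturation, stood at 73.7, 146 and 246 CPM and Klf1 at 148, 218 and 238 CPM.

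Other genes were ordered the opposite way. Of 6 genes of the DNA methylation machinery at 20 CPM or more, 4 had lower values in each step of all 3 libraries (Dnmt1, Uhrf1, Tdg and Trim28), as did 4 of 18 S phase genes (22.2%), a share close to that of all genes. In WT 1 Dnmt1 stood at 82.6, 74.9 and 72.0 CPM and Uhrf1, which brings DNMT1 to newly made DNA, at 94.0, 82.6 and 72.8 CPM. Dnmt3b stood at 26.5, 8.79 and 6.45 CPM and Tet1, which oxidises methylated cytosine, at 8.18, 1.26 and 0.752 CPM. Kit, the receptor of blood progenitors, stood at 7.47, 2.64 and 2.15 CPM. The median UMI count of the cells also differed between the classes, at 35666, 32718 and 30235 in WT 1, 41614, 38475 and 17295 in Dnmt3a KO 13 and 45591.5, 42925 and 30726 in Dnmt3b KO 12, and its part in these values was not tested.

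**Figure D3:**
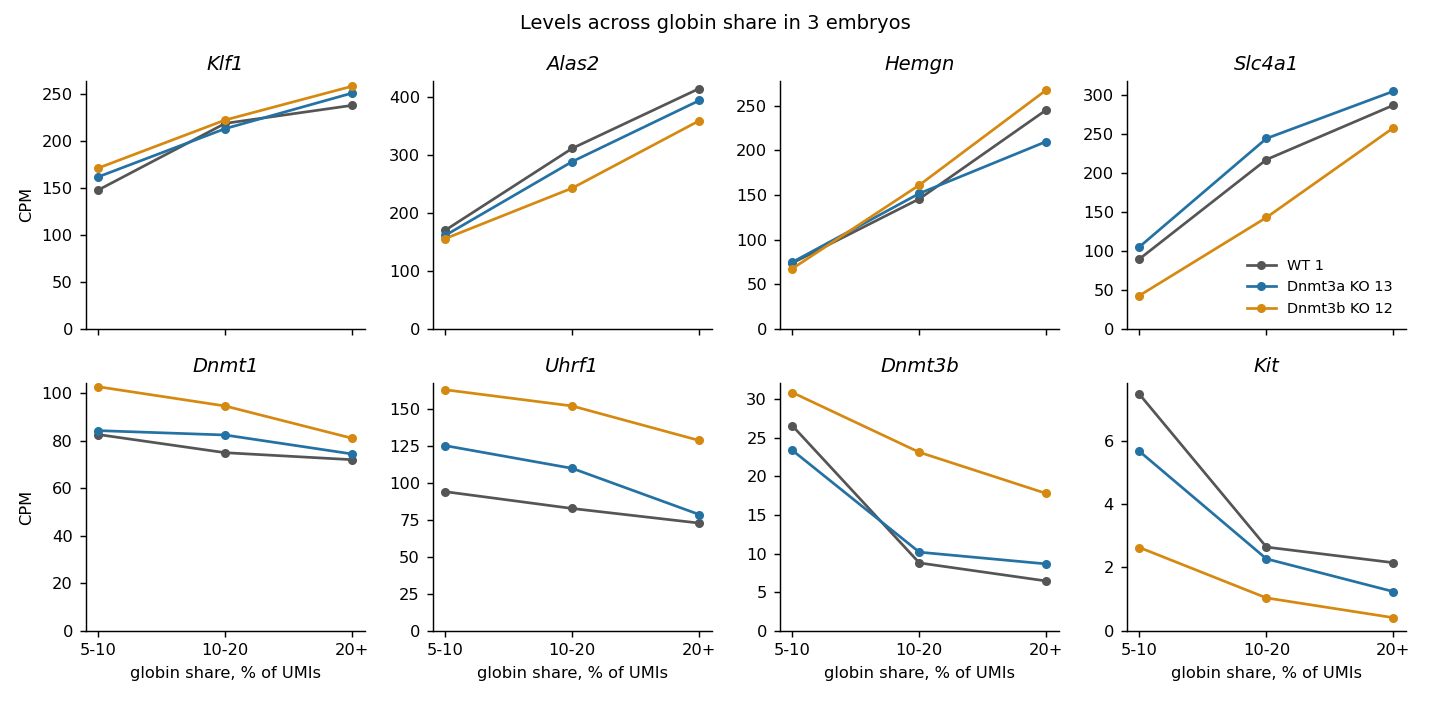
CPM of 8 genes (vertical axes) in primitive erythroid cells grouped by globin share (horizontal axis, 5 to 10%, 10 to 20% and 20% or more of UMIs), with 1 line for each of WT 1, Dnmt3a KO 13 and Dnmt3b KO 12. Klf1, Alas2, Slc4a1 and Hemgn climb in all 3 libraries, whereas Dnmt1, Uhrf1, Dnmt3b and Kit decline.

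The erythroid label held against genes that the rule did not use. In the primitive erythroid cells of the 17 libraries Gata1 ran from 96.8 to 153 CPM, against 1.04 to 13.3 CPM in the other cells of the same libraries. Klf1 ran from 87.0 to 211 CPM against 1.29 to 5.76 and Alas2 from 108 to 306 against 1.40 to 5.94. In none of these 3 genes did the ranges meet.

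A small number of cells carried mostly adult beta globin among their beta chains. In 104 distinct cells, found in 10 of the 17 independent libraries, the adult beta globins Hbb-bs and Hbb-bt together had more UMIs than Hbb-y and Hbb-bh1. There were 41 in Dnmt3b KO 1+2, 19 of them with this call in both of its libraries. Dnmt3a KO 2 had 22, WT 2 had 19 and WT 3 had 7. Any other library had at most 5, with 1 in Dnmt1 KO 1 and 3 in Dnmt1 KO 2, or 15% of its cells that met the rule. In Dnmt1 KO 2, WT 3 and WT 7 these cells held 63.3% to 66.4% adult beta globin and 0% Hbb-y, Hbb-bh1 and Hba-x. Their globins thus go against the name primitive erythroid, and they still count in the shares and globin values above. In the 19 cells of WT 2, adult beta globin made up 49.8% of UMIs, Hbb-y and Hbb-bh1 together 0.329% and Hba-x 0.586%. Hba-x was 3.73% of UMIs in the 1 such cell of Dnmt1 KO 1. Without the adult-globin cells, the summed CPM of Hbb-bs, Hbb-bt, Hbb-bh2, Hbq1a and Hbq1b in Dnmt1 KO 2 went from 16726 to 2246. Leaving these cells out gave 251 higher and 199 lower genes in Dnmt1 KO, 3 and 0 in Dnmt3a KO and 61 and 2 in Dnmt3b KO, close to the counts given below for all cells.

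For the comparison of Dnmt1 KO with WT, counts were summed over the primitive erythroid cells of each library and tested with edgeR's quasi-likelihood test, with p-values adjusted by the Benjamini-Hochberg method over all 11987 genes tested. Calls required adjusted p-values below 0.01 together with log2 changes of 1 or more in either direction. Changes are KO minus WT with their standard error (SE). In Dnmt1 KO 251 genes were called higher, 2.09% of the genes tested, and 194 lower, 1.62%, or 3.71% in either direction. Without Dnmt1 KO 1 the counts were 135 higher and 127 lower. At an unadjusted p under 0.05, 1266 of the 11987 genes were higher and 2037 lower. The counts for single lists below, called or at an unadjusted p, should be read against these values for all genes. The median change of all genes was -0.14 on the log2 scale under TMM scaling and -0.06 under the size factors of DESeq2 (RLE), which gave 284 higher and 137 lower genes. Changes in Dnmt1 KO should be read against that median. The p-values compare 3 with 7 embryos, and the spread behind them was estimated over the libraries of all 4 groups in 1 fit. The 3 Dnmt1 KO sums come from only 22, 20 and 43 cells.

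The cells and embryos of Dnmt1 KO also differed from WT in quality and sex. The median share of ribosomal protein UMIs was 33.9%, 32.6% and 36.7% in the primitive erythroid cells of Dnmt1 KO 1, 2 and 3 and 27.8% to 30.5% in WT. The median UMI count per cell was 55435, 15256 and 3667, against 9736 to 62139 in WT. A filter of at most 35% ribosomal and 30% mitochondrial UMIs left 17, 15 and 14 cells, and with it 10 named genes were no longer called (adjusted p = 0.0033 to 0.030). Each kept its direction, at log2 changes of -1.14 for Hemgn, -0.97 for Klf3, -0.93 for Urod, 3.28 for Eda2r, 4.85 for Plek, 2.78 for Rab27b, -1.34 for Tbp, 1.05 for Kcnq1ot1, -3.10 for Samd1 and -3.40 for Olfm1. All Dnmt1 KO embryos were male, as was 1 of the 7 WT embryos, and with a covariate for Y-linked counts Hemgn (-1.16, adjusted p = 0.015), Klf3 (-0.81, adjusted p = 0.034), Urod (-0.91, adjusted p = 0.0096), Eda2r (2.82), Mbd2 (-1.33), Kcnq1ot1 (0.88) and Samd1 (-3.23) were no longer called.

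Gata1 and Tal1 overlapped between Dnmt1 KO and WT, whereas Klf1 lay lower in each Dnmt1 KO library. Gata1 stood at 97.4, 109 and 135 CPM (lowest, median, highest) in WT and at 128, 141 and 124 CPM in Dnmt1 KO 1, 2 and 3 (log2 0.23 ± 0.13, adjusted p = 0.28). Tal1 stood at 106, 117 and 132 CPM in WT and at 127, 136 and 131 CPM in Dnmt1 KO (log2 0.15 ± 0.11, adjusted p = 0.43). Klf1 had 145, 184 and 210 CPM in WT and 109, 111 and 87.0 CPM in Dnmt1 KO, below every WT library, with a log2 change of -0.80 ± 0.13 (adjusted p = 0.00016) that is smaller than a call requires. Klf1 also rose with globin load within embryos, and 85.0% to 93.0% of the Dnmt1 KO cells held 5 to 10% globin. Load was not held constant in this comparison. Zfpm1, the cofactor FOG1 of GATA1, had 93.1, 202 and 235 CPM in WT and 105, 98.8 and 87.0 CPM in Dnmt1 KO and missed the call by its fold (log2 -0.997 ± 0.23, adjusted p = 0.0063).

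Hemgn and Klf3 were the 2 of 15 tested erythroid regulators called in Dnmt1 KO, both lower. Hemgn had 68.0, 101.1 and 152 CPM in WT and 37.2, 46.9 and 46.2 CPM in Dnmt1 KO, with no overlap (log2 -1.34 ± 0.25, adjusted p = 0.0013). Klf3, a KLF repressor that itself depends on KLF1 in red cells, had 33.7, 38.3 and 48.1 CPM in WT and 20.1, 17.3 and 17.8 CPM in Dnmt1 KO (log2 -1.09 ± 0.24, adjusted p = 0.0030). The median of the 15 regulators was -0.15, beside -0.14 for all genes. Among cells with 5 to 10% globin only, the changes were -0.98 (adjusted p = 0.048) for Hemgn and -0.83 (adjusted p = 0.0073) for Klf3, so neither was called. The call of Hemgn was also lost without Dnmt1 KO 1 (-1.20, adjusted p = 0.025), and that of Klf3 without any single Dnmt1 KO library (-1.04 to -1.18, adjusted p = 0.019 to 0.027).

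Of 15 tested genes of heme synthesis edgeR called 1 in Dnmt1 KO, lower, beside 1.62% of all genes, and DESeq2 called 0. The median of the 15 genes was -0.42, beside -0.14 for all genes. At an unadjusted p under 0.05, 9 of the 15 were lower, beside 2037 of all 11987 genes. Urod, which makes coproporphyrinogen, had 170, 214 and 289 CPM in WT and 134, 76.6 and 97.7 CPM in Dnmt1 KO, with no overlap (log2 -1.03 ± 0.18, adjusted p = 0.00051). Its change fell short of the fold for a call under RLE scaling (-0.95), in cells with 5 to 10% globin (-0.77), and without Dnmt1 KO 2 (-0.87), Dnmt1 KO 3 (-0.99), WT 1 (-0.94), Dnmt3a KO 1 (-0.996) or Dnmt3a KO 2 (-0.99). Alad, the enzyme after Alas2, had 349, 391 and 507 CPM in WT and 266, 175 and 195 CPM in Dnmt1 KO (-0.91 ± 0.14, adjusted p = 0.00018). Alas2 had 143, 205 and 306 CPM in WT and 126, 141 and 108 CPM in Dnmt1 KO (-0.70 ± 0.20, adjusted p = 0.021). The 3 Dnmt1 KO libraries lay below every WT library in each of these 3 genes. All 3 also rose with globin load within the embryos above, and load was not held constant in the values of Alad and Alas2.

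Hebp1, a heme-binding protein on none of the lists, was among the 8 genes named for the largest drop. It had 133, 178 and 285 CPM in WT and 21.1, 22.2 and 23.1 CPM in Dnmt1 KO 1, 2 and 3 (log2 -3.07 ± 0.37, adjusted p = 4.4e-05). The Dnmt1 KO libraries were close to each other and far below WT. Among cells with 5 to 10% globin its change was -2.52 (adjusted p = 0.00020), and the call held in all 33 alternatives.

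Of 19 tested red cell membrane genes, 2 were called in Dnmt1 KO, both lower, beside 1.62% of all genes. Both are parts of the membrane skeleton. Add2, the beta subunit of adducin, had 45.4, 53.9 and 65.7 CPM in WT and 16.1, 7.41 and 10.7 CPM in Dnmt1 KO (log2 -2.09 ± 0.23, adjusted p = 2.8e-06). Tmod1, which caps actin filaments, had 68.2, 79.2 and 92.4 CPM in WT and 34.1, 29.6 and 32.0 CPM in Dnmt1 KO (-1.27 ± 0.15, adjusted p = 4.0e-06). Both groups were apart, and both calls held in all 33 alternatives, with -1.97 and -1.27 in cells with 5 to 10% globin. Slc4a1 had 34.9, 77.7 and 208 CPM in WT and 52.2, 49.4 and 44.4 CPM in Dnmt1 KO (-0.92 ± 0.64, adjusted p = 0.39). The median of the 19 genes was -0.26.

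Of 12 tested genes of iron handling 0 were called by edgeR or DESeq2 in Dnmt1 KO, and their median was -0.18. At an unadjusted p under 0.05, 1 was higher and 3 lower, beside 1266 and 2037 of all 11987 genes. Slc25a37, the mitochondrial iron importer mitoferrin, had 323, 439 and 599 CPM in WT and 302, 235 and 165 CPM in Dnmt1 KO (-0.91 ± 0.20, adjusted p = 0.0053). Tfrc, the transferrin receptor, had 105, 127 and 170 CPM in WT and 107, 126 and 121 CPM in Dnmt1 KO (-0.21 ± 0.20, adjusted p = 0.54).

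Gata2, which acts in progenitors before GATA1 replaces it, was the 1 of 11 tested blood progenitor genes called in Dnmt1 KO. It had 0, 1.14 and 1.62 CPM in WT and 14.1, 12.3 and 26.6 CPM in Dnmt1 KO 1, 2 and 3, from 14, 5 and 15 UMIs (log2 3.88 ± 0.53, adjusted p = 3.9e-05). The other KO libraries had 1.13 to 1.45 CPM, except for Dnmt3b KO 12 with 5.70 CPM. The call held in all 32 alternatives that gave a value. Runx1, needed for the later definitive lineages, had 29.5, 56.2 and 70.4 CPM in WT and 59.2, 74.1 and 51.5 CPM in Dnmt1 KO (0.26 ± 0.26, adjusted p = 0.56). In the same cells Kit had 3.39, 5.75 and 16.9 CPM in WT and 3.01, 4.94 and 3.55 CPM in Dnmt1 KO. The 11 tested genes had a median of 0.41, beside -0.14 for all genes, with 8 of 11 above 0 and 2 called higher by DESeq2. The summed level of the 13 listed genes was 97.4, 121 and 107 CPM in Dnmt1 KO 1, 2 and 3 against 50.9 to 103 CPM in WT, so the groups overlapped.

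**Figure D4:**
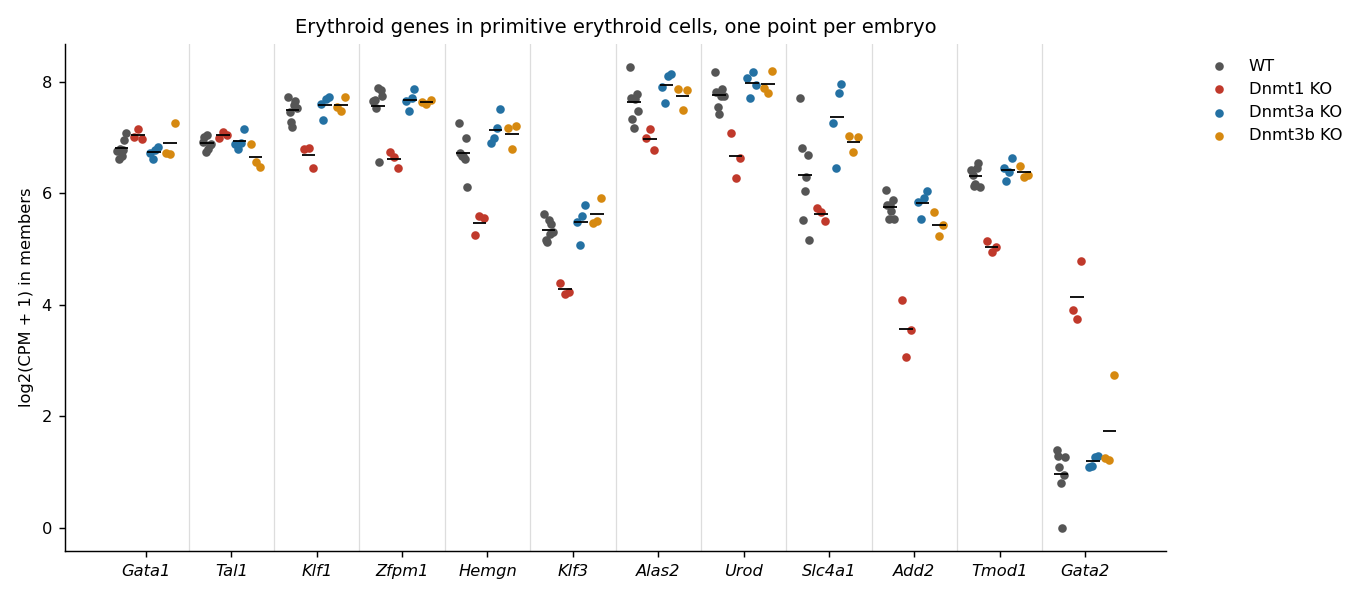
Level of 12 erythroid and progenitor genes in the primitive erythroid cells, as log2(CPM + 1), with 1 point per library and a line at the group mean, for 7 WT, 3 Dnmt1, 4 Dnmt3a and 3 Dnmt3b KO libraries. Add2, Tmod1, Klf3 and Hemgn are lowest in Dnmt1 KO, Gata2 is highest there, and Gata1 overlaps between all groups.

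Markers of other blood and embryonic cells were summed in the same cells. The 9 megakaryocyte markers summed to 22.6 to 35.6 CPM in WT, 62.3, 98.8 and 72.8 CPM in Dnmt1 KO 1, 2 and 3, 27.4 to 33.4 CPM in Dnmt3a KO and 26.6, 31.8 and 54.6 CPM in Dnmt3b KO 1+2, 11 and 12. Ppbp, a defining platelet gene, was at 0 in every library. Of the 6 tested, 3 were called higher in Dnmt1 KO: Itga2b, the platelet integrin CD41, at 18.7, 22.9 and 29.0 CPM in WT and 55.2, 61.7 and 35.5 CPM in Dnmt1 KO (1.14 ± 0.23, adjusted p = 0.0018), Plek and Rab27b. Each call was lost without some Dnmt1 KO library: Itga2b without Dnmt1 KO 1 (1.04, adjusted p = 0.044) or 2 (1.05, adjusted p = 0.018), Plek without 3 (4.43, adjusted p = 0.082), and Rab27b without 2 (2.50, adjusted p = 0.056) or 3 (2.72, adjusted p = 0.046). The 10 macrophage markers summed to at most 1.46 CPM in WT and to 9.04, 2.47 and 28.4 CPM in Dnmt1 KO, with C1qb at 0 in every library. Only 2 of these 10 passed the filter on low counts, which genes near 0 in WT pass only where a KO raises them. Of the 2, Laptm5 was called, with at most 0.351 CPM in WT and 3.01, 2.47 and 17.8 CPM in Dnmt1 KO, from 3, 1 and 10 UMIs (adjusted p = 0.00018, and 0.045 without Dnmt1 KO 3).

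Yolk sac endoderm markers summed to 65.7 to 1091 CPM in WT and 101.4, 207 and 62.2 CPM in Dnmt1 KO, and endothelial markers to 58.9 to 80.4 and 85.3, 76.6 and 85.3 CPM. Mesenchymal markers summed to 3.07 to 78.5 CPM in WT and at most 8.88 CPM in Dnmt1 KO, neural markers to 3.51 to 27.2 and at most 10.0 CPM, and trophoblast markers to 128 to 193 and 298, 143 and 133 CPM. In WT the summed levels in the other cells of the same embryos were at least 3698 CPM for endoderm, 566 for mesenchyme, 389 for neural and 721 for trophoblast markers. In Dnmt3a KO and Dnmt3b KO the mesenchymal markers summed to 35.7 to 65.5 and 42.5 to 89.0 CPM and the neural markers to 28.4 to 43.3 and 17.04 to 31.8 CPM, so that every Dnmt3a KO library lay above every WT library in the neural sum. The part of such cells, or of their free RNA, in the values of the KO libraries was not tested.

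Of 18 S phase genes 3 fell in Dnmt1 KO. The 18 genes had a median change of -0.44, beside -0.14 for all genes, with 0 called higher and 13 lower at an unadjusted p under 0.05. Ccne1, the cyclin of S phase entry, had 156, 197 and 213 CPM in WT and 46.2, 14.8 and 51.5 CPM in Dnmt1 KO (log2 -2.26 ± 0.21, adjusted p = 6.5e-07). Rrm2, which makes deoxynucleotides, had 221, 303 and 355 CPM in WT and 120, 101.3 and 139 CPM in Dnmt1 KO (-1.28 ± 0.14, adjusted p = 2.7e-06). Fen1, the flap nuclease, had 102, 129 and 137 CPM in WT and 58.2, 46.9 and 55.1 CPM in Dnmt1 KO (-1.15 ± 0.14, adjusted p = 1.1e-05). All 3 were without overlap, and in cells with 5 to 10% globin the change of Fen1 was -0.98, just under the size of a call. The summed level of the 18 genes was 1722, 1517 and 1741 CPM in Dnmt1 KO against 2390.3 to 2792 CPM in WT. The 18 G2 and M phase genes had a median of -0.05, and edgeR called 0 of them (6 higher and 2 lower at an unadjusted p under 0.05, 0 called by DESeq2).

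Of 17 tested targets of p53, 6 rose in Dnmt1 KO and 0 fell, with a median of 1.01. Ccng1, a cyclin induced by p53, had 15.7, 20.6 and 25.9 CPM in WT and 93.4, 69.2 and 115 CPM in Dnmt1 KO. Bbc3, the death protein PUMA, had 3.56, 4.21 and 5.33 CPM in WT and 34.1, 32.1 and 24.9 CPM in Dnmt1 KO (2.82 ± 0.28, adjusted p = 8.1e-07). Trp53inp1 had 0.375, 0.5264 and 1.08 CPM in WT and 6.02, 17.3 and 17.8 CPM in Dnmt1 KO (4.23 ± 0.46, adjusted p = 2.4e-06). Sesn2 also rose (2.79 ± 0.39, adjusted p = 4.9e-05), as did Zmat3. Eda2r, from 3, 0 and 5 UMIs, rose (3.17 ± 0.72, adjusted p = 0.0042) but lost its call without Dnmt1 KO 1 (3.46, adjusted p = 0.020) or Dnmt1 KO 3 (2.16, adjusted p = 0.17).

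Among glycolytic genes 1 of 18 tested rose and 2 fell, beside 2.09% and 1.62% of all genes, with a median of -0.56. Pfkp, the platelet form of phosphofructokinase, had 4.20, 6.77 and 9.22 CPM in WT and 46.2, 42.0 and 46.2 CPM in Dnmt1 KO (log2 2.79 ± 0.28, adjusted p = 9.2e-07). Pdk1 had 37.3, 46.0 and 51.0 CPM in WT and 14.1, 4.94 and 8.88 CPM in Dnmt1 KO (-2.08 ± 0.27, adjusted p = 1.8e-05). Tpi1 had 635, 708 and 819 CPM in WT and 363, 415 and 298 CPM in Dnmt1 KO (-1.01 ± 0.11, adjusted p = 2.0e-06), at the edge of the fold for a call: -0.97 without WT 2, -0.98 without WT 7, -0.90 without Dnmt1 KO 3, -0.97 without Dnmt3a KO 1 or 2, -0.99 without both Dnmt3b KO 11 and 12, and -0.91 in cells with 5 to 10% globin. Bst2, a membrane protein of the interferon response, was the 1 of 7 tested genes of that list called, with 5.54, 7.90 and 11.5 CPM in WT and 42.2, 27.2 and 48.0 CPM in Dnmt1 KO (2.26 ± 0.36, adjusted p = 0.00035). Of 13 antioxidant genes and 8 mitophagy genes edgeR called 0 (0 higher with 4 lower, and 0 higher with 2 lower, at an unadjusted p under 0.05, and 0 by DESeq2), with medians of -0.16 and -0.18. Of 22 housekeeping genes Tbp was called lower (-1.50 ± 0.28, adjusted p = 0.0015), a call that was lost without any single Dnmt1 KO library, and the median was -0.21.

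The targeted gene was read first as a check of the labels. Dnmt1 had 75.7, 90.5 and 110 CPM in the primitive erythroid cells of WT and 13.1, 9.88 and 8.88 CPM in Dnmt1 KO 1, 2 and 3 (log2 -3.04 ± 0.23, adjusted p = 1.5e-08). Dnmt3a had 5.53, 6.63 and 7.62 CPM in WT and 1.70, 1.65, 1.53 and 1.37 CPM in Dnmt3a KO 1, 2, 13 and 14, all below WT (-2.09 ± 0.39, adjusted p = 0.057). It had 8.02, 3.49 and 0.852 CPM in the libraries labelled Dnmt3b KO 1+2, 11 and 12, the last below every Dnmt3a KO library and the one before it between Dnmt3a KO and WT. Dnmt3b had 10.0, 12.4 and 15.0 CPM in WT and 13.7, 14.4 and 24.7 CPM in Dnmt3b KO 1+2, 11 and 12 (0.50 ± 0.16, adjusted p = 0.15), so its transcript count does not check the Dnmt3b KO label. A 3' tag reports the end of a transcript, and which part of each gene the null alleles lack is not given in the sources used here. Of 14 tested genes of the methylation machinery Dnmt1 and Mbd2 were called lower in Dnmt1 KO, and the median was -0.27. Mbd2, which binds methylated DNA, had 36.0, 71.9 and 76.2 CPM in WT and 15.1, 27.2 and 42.6 CPM in Dnmt1 KO (-1.34 ± 0.30, adjusted p = 0.0052), a call lost without Dnmt1 KO 1 (-0.89, adjusted p = 0.098) or Dnmt1 KO 2 (-1.34, adjusted p = 0.027) or without both Dnmt3b KO 11 and 12 (-1.32, adjusted p = 0.013).

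Among the genes called lower in Dnmt1 KO with a mean of at least 20 CPM in WT and no overlap between the groups, Grb10 had the largest drop. This imprinted gene, which encodes an adaptor that restrains insulin receptor signalling, had 72.4, 100.03 and 127 CPM in WT and 5.02, 4.94 and 3.55 CPM in Dnmt1 KO (log2 -4.47 ± 0.32, adjusted p = 1.5e-08). The call held in all 33 alternatives. Apobec3, a deaminase of antiviral defence, had 16.8, 21.2 and 28.0 CPM in WT and 1.00, 0 and 3.55 CPM in Dnmt1 KO, from 1, 0 and 2 UMIs (-3.80 ± 0.52, adjusted p = 3.5e-05). Nmnat3, an enzyme of NAD synthesis, had 18.6, 19.7 and 24.1 CPM in WT and 1.00, 2.47 and 0 CPM in Dnmt1 KO (-4.32 ± 0.81, adjusted p = 0.0013), and lost its call without Dnmt1 KO 1 (-4.29, adjusted p = 0.028) or 3 (-3.84, adjusted p = 0.012). In all 3 genes the Dnmt1 KO libraries lay below every WT library, which the rule for naming them required.

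Cd24a, a surface protein of immature red cells, had 128, 152 and 187 CPM in WT and 23.1, 9.88 and 8.88 CPM in Dnmt1 KO (log2 -3.31 ± 0.57, adjusted p = 0.0013, and 0.010 without Dnmt1 KO 3). Dnmt3b KO 12 had 50.1 CPM of it, against 208 and 202 CPM in Dnmt3b KO 1+2 and 11. Samd1, Scd2 and Olfm1 were called with changes of -3.31 ± 0.70, -3.29 ± 0.63 and -3.29 ± 0.73 (adjusted p = 0.0041, 0.0019 and 0.0064), and each call was lost without any single Dnmt1 KO library, with adjusted p of 0.010 to 0.083 over these 9 fits.

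The genes with the largest rise in Dnmt1 KO had almost no UMIs in WT. Clvs1, a lipid-binding protein of the clathrin pathway, had at most 0.0501 CPM in any WT library and 66.3, 61.7 and 63.9 CPM in Dnmt1 KO 1, 2 and 3 (adjusted p = 2.1e-11). Trim5 had at most 0.104 CPM in WT and 58.2, 56.8 and 49.7 CPM in Dnmt1 KO (adjusted p = 3.6e-11). Tex13b had at most 0.0251 CPM in WT, 39.2, 39.5 and 42.6 CPM in Dnmt1 KO and 21.6 CPM in Dnmt3b KO 12 (adjusted p = 0.00032, and 0.018 without WT 2). The 3 Dnmt1 KO libraries lay within a narrow band in each gene. A fold against so few WT counts depends on the fit and is not given.

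AC159200.1, a long non-coding RNA, and Serpinb1c, a protease inhibitor, had 0 UMIs in all 7 WT libraries. AC159200.1 had 64.3, 27.2 and 30.2 CPM in Dnmt1 KO 1, 2 and 3 (adjusted p = 4.4e-06, but 0.011 with DESeq2) and Serpinb1c 54.2, 27.2 and 26.6 CPM (adjusted p = 5.1e-07). Usp9y, a Y-linked deubiquitinase, had 14.1, 39.5 and 10.7 CPM in Dnmt1 KO and 0 in WT, WT 2 being the only male WT library. The male Dnmt3a KO and Dnmt3b KO libraries had at most 0.441 CPM of it.

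Germline genes formed the list with the most calls, and the promoters of 4 of them and of Tex19.1, which stood on the list of extraembryonic genes, are shown here for their density of CG, the pair of bases that DNA methyltransferases modify. The windows are the 200 bases directly before the RefSeq transcript start on build GRCm38.p6, read 5′ to 3′ on the strand of the gene, and capitals mark each CG. Asz1, Tex19.1 and Sycp1 act in the germ line in transposon silencing and chromosome synapsis, Hormad1 in meiotic recombination, and Rpl39l is a ribosomal protein of the testis. They lie at chr6:18109062-18109261 (Asz1, minus), chr3:102936101-102936300 (Sycp1, minus), chr11:121145943-121146142 (Tex19.1, plus), chr3:95559477-95559676 (Hormad1, plus) and chr16:10170028-10170227 (Rpl39l, plus).
Asz1: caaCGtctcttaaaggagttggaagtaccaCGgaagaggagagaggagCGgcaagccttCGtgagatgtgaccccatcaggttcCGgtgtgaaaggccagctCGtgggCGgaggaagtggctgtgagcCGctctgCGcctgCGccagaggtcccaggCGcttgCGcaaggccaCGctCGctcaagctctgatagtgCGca
Sycp1: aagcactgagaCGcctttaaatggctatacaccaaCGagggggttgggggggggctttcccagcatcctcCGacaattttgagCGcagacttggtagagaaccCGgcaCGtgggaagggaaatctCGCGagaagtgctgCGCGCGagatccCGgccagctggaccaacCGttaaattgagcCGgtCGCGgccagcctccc
Tex19.1: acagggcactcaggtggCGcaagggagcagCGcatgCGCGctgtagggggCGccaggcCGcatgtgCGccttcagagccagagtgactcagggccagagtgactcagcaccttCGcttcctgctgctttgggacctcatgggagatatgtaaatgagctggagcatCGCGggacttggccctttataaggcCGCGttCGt
Hormad1: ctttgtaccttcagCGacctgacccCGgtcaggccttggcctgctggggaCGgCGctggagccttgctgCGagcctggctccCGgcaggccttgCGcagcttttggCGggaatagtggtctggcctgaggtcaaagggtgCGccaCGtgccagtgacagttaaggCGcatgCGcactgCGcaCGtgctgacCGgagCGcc
Rpl39l: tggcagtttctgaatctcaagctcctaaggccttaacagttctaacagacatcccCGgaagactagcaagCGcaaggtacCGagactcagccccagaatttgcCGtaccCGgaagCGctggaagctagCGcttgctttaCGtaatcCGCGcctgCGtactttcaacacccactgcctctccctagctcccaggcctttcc
They held 15, 16, 13, 16 and 11 CG in this order. Over all 32817 windows of this length the median was 5, 89.4% held at least 1 CG and 31.7% held 11 or more, the lowest count of these 5. Other genes that rose held fewer: Rhox5 had 4 CG, Trap1a 6, Tnni3 3 and the windows of Serpinb1c 0 and 1, while the germline gene Dazl had 18. DNA methylation was not measured in these cells.

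The 30 germline genes summed to 3.95 to 10.4 CPM in the primitive erythroid cells of WT. They summed to 484, 425 and 424 CPM in Dnmt1 KO 1, 2 and 3, to 22.1, 38.8, 65.0 and 72.6 CPM in Dnmt3a KO 1, 2, 13 and 14 and to 79.3, 138 and 695 CPM in Dnmt3b KO 1+2, 11 and 12. Every KO library lay above every WT library, and the library labelled Dnmt3b KO 12 lay above all others. This library also had the low Dnmt3a level given above, was the one Dnmt3b KO embryo that was not male and was the one library of the series counted with Cell Ranger 5.0.0, and the part of each in its values, here and below, was not tested. In the other cells of the same embryos the sums were 13.5 to 27.2 CPM in WT, 440 to 456 in Dnmt1 KO, 45.5 to 74.3 in Dnmt3a KO and 137 to 650 in Dnmt3b KO. Of 23 genes that passed the filter on low counts in the Dnmt1 KO fit, 13 were called higher and 0 lower. Of 24 in the other fits, 1 was called higher in Dnmt3a KO and 16 in Dnmt3b KO. The Dnmt3b KO count was 8 of 21 without the library labelled Dnmt3b KO 12 and 4 of 20 without both it and Dnmt3b KO 11, where the remaining Dnmt3b KO 1+2 is assumed to vary like the libraries of the other groups. Genes near 0 in WT pass that filter only where a KO raises them, so these shares of the tested genes are no support by themselves.

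Single germline genes showed how the 3 KO differed. Sycp1 had at most 0.0752 CPM in WT, 48.2, 32.1 and 39.1 CPM in Dnmt1 KO (adjusted p = 2.6e-10), 0.0707 to 0.165 CPM in Dnmt3a KO (adjusted p = 0.48) and 4.68, 8.87 and 18.96 CPM in Dnmt3b KO 1+2, 11 and 12 (adjusted p = 3.8e-07, and 3.0e-05 without the last 2). Rpl39l had 0, 0.259 and 2.58 CPM in WT, 209, 212 and 186 CPM in Dnmt1 KO (log2 7.51 ± 0.78, adjusted p = 2.8e-05), 4.59 to 18.3 CPM in Dnmt3a KO (adjusted p = 0.24) and 21.4, 55.6 and 124 CPM in Dnmt3b KO (5.92 ± 0.77, adjusted p = 0.0028, but 0.019 without Dnmt3b KO 12, 0.32 without Dnmt3b KO 11 and 12, 0.012 without WT 1 and 0.011 without WT 6). Dazl, an RNA-binding protein of germ cells, had at most 0.0877 CPM in WT, 78.3, 46.9 and 24.9 CPM in Dnmt1 KO (adjusted p = 0.0089), 0.919, 4.46, 12.6 and 24.8 CPM in Dnmt3a KO (adjusted p = 0.29) and 3.27, 14.3 and 308 CPM in Dnmt3b KO (adjusted p = 0.012). The spread of Dazl within Dnmt3a KO and Dnmt3b KO was wide, and its calls were absent there although each library exceeded WT. Asz1 had at most 0.0251 CPM in WT, 17.1, 14.8 and 37.3 CPM in Dnmt1 KO (adjusted p = 0.00063, and 0.023 without WT 2) and 1.11, 1.94 and 34.6 CPM in Dnmt3b KO (adjusted p = 0.0043, and 0.010 to 0.16 with any single WT library left out).

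**Figure D5:**
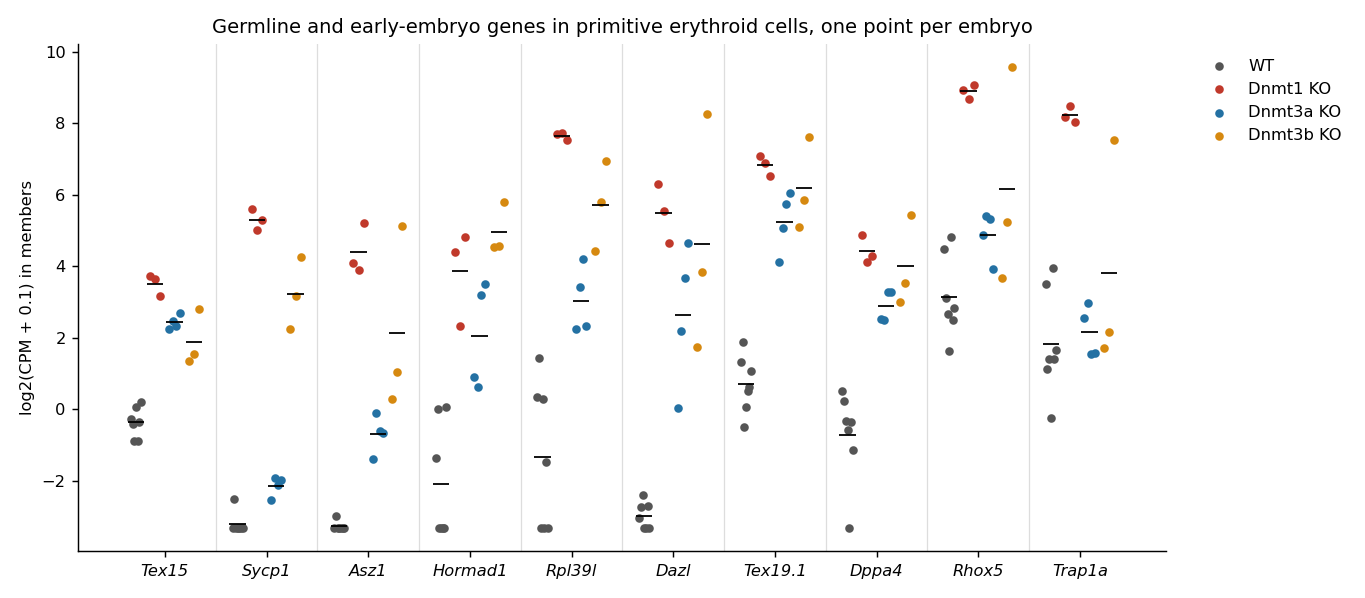
Level of 10 germline and extraembryonic genes in the primitive erythroid cells, as log2(CPM + 0.1), with 1 point per library and a line at the group mean. In each panel every Dnmt1 KO point lies above every WT point. The library labelled Dnmt3b KO 12 is the highest Dnmt3b KO point throughout, with 308 CPM of Dazl and 764 CPM of Rhox5.

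Genes of primed pluripotency and of extraembryonic tissue, were raised in part. The study names Slc7a3, Rhox5 and Trap1a among markers of these tissues from the same embryos, so the lists are not independent of them. Slc7a3, an amino acid transporter of the epiblast, had 0.750, 1.24 and 1.88 CPM in WT and 26.1, 24.7 and 17.8 CPM in Dnmt1 KO (log2 4.02 ± 0.32, adjusted p = 2.6e-08). It and Dppa4 were called among the 5 of 10 listed pluripotency genes that passed the filter on low counts. Both were near 0 in WT, so, as for the germline genes, this share of the tested genes is no support by itself. Rhox5, an X-linked homeobox gene of the placenta, had 3.002, 7.02 and 28.1 CPM in WT, 487, 408 and 542 CPM in Dnmt1 KO (5.48 ± 0.98, adjusted p = 0.0019, and 0.010 without Dnmt1 KO 1) and 12.6, 38.0 and 764 CPM in Dnmt3b KO 1+2, 11 and 12. Trap1a, also X-linked, had 0.750, 2.54 and 15.4 CPM in WT and 290.2, 356 and 265 CPM in Dnmt1 KO (5.96 ± 1.10, adjusted p = 0.0023, and 0.012 without Dnmt1 KO 1). Both lost their calls in cells with 5 to 10% globin (4.51 and 4.91, adjusted p = 0.017 and 0.015). With Tex19.1 they made 3 of 11 tested extraembryonic genes called, with a median of 2.14, and the trophoblast markers summed above were within the WT range in 2 of the 3 Dnmt1 KO libraries.

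Of 42 tested imprinted genes 3 were called in Dnmt1 KO, 2 higher and 1 lower, beside 2.09% and 1.62% of all genes. The median was -0.56, beside -0.14 for all genes. Jade1 had 19.5, 22.1 and 27.2 CPM in WT and 132, 138 and 108 CPM in Dnmt1 KO (log2 2.50 ± 0.43, adjusted p = 0.0013), and 107 CPM in Dnmt3b KO 12 beside 23.0 and 22.4 CPM in Dnmt3b KO 1+2 and 11. Its adjusted p was 0.014 without Dnmt1 KO 1. Kcnq1ot1, the non-coding RNA of its domain, had 142, 199 and 260 CPM in WT and 384, 501 and 325 CPM in Dnmt1 KO (1.00 ± 0.22, adjusted p = 0.0055). This value stood at the limit for a call, which was lost in 16 of 33 alternatives, among them each fit without a single Dnmt1 KO library (0.86 to 1.12). Grb10, above, was the gene called lower.

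In Dnmt3a KO edgeR called few genes of primitive erythroid cells in the main fit, which has no block for replicate number. More were called with such a block, as given below. The deviations of WT 1 and 2 correlated with those of Dnmt3a KO 1 and 2 at 0.45 and 0.36. Pairs of different numbers were not compared, so these correlations cannot be credited to the replicate number. Of 12913 genes tested, edgeR called 3 higher (0.0232%) and 0 lower, with 713 higher and 567 lower at an unadjusted p under 0.05, and DESeq2 called 29 higher and 1 lower. With 1 library left out the total was 18 without Dnmt3b KO 12, 8 without Dnmt3b KO 1+2 and 5 without WT 2, and it was 16 without both Dnmt3b KO 11 and 12. The erythroid lists had 0 calls: 0 of 16 regulators, 0 of 15 heme genes, 0 of 12 iron genes and 0 of 19 membrane genes, with 0 by DESeq2 and, at an unadjusted p under 0.05, 2 higher and 1 lower, 1 higher, 1 higher and none. Their medians were 0.07, 0.16, 0.11 and 0.10, beside 0.00 for all genes. Klf1 had 193, 158, 206 and 210 CPM in Dnmt3a KO 1, 2, 13 and 14, within the WT range save for the last, and Alas2 had 239, 196, 273 and 280 CPM, all within it.

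Tex15, Hsf2bp and Cntnap2 were the 3 called genes. Tex15, a germ cell gene of meiotic repair and transposon silencing, had 0.439, 0.673 and 1.05 CPM in WT and 4.59, 5.46, 4.95 and 6.34 CPM in Dnmt3a KO 1, 2, 13 and 14 (log2 2.87 ± 0.27, adjusted p = 5.8e-05). Hsf2bp, a meiotic recombination gene, had 0, 0.208 and 0.376 CPM in WT and 1.52, 1.49, 3.11 and 2.67 CPM in Dnmt3a KO (3.02 ± 0.38, adjusted p = 0.0016, and 0.042 in cells with 5 to 10% globin). Cntnap2, a neuronal adhesion gene, had 4.50, 7.14 and 8.35 CPM in WT and 13.6, 19.9, 13.6 and 16.1 CPM in Dnmt3a KO (1.27 ± 0.17, adjusted p = 0.0019, 0.011 without Dnmt3a KO 2 and 0.045 with the Y-linked covariate). Tex15 and Cntnap2 were no longer called in cells with at least 10% globin (adjusted p = 0.025 and 0.023) or when thinned to the smallest library outside Dnmt1 KO (adjusted p = 0.014 for both). Each was without overlap between the groups. The 8 neural markers, which do not include Cntnap2, all had positive changes in Dnmt3a KO (median 1.22), 4 of them with an unadjusted p under 0.05 and 0 called by edgeR or DESeq2. All 3 were also higher in Dnmt3b KO, with 2.42 to 6.87, 2.86 to 7.45 and 12.2 to 17.2 CPM (log2 2.47, 4.02 and 1.16, adjusted p = 0.00019, 2.3e-05 and 0.0021), a comparison that shares its WT libraries with the first.

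Tex19.1 varied more between the KO libraries. It had 0.614, 1.45 and 3.58 CPM in WT, 17.4, 33.6, 53.8 and 65.9 CPM in Dnmt3a KO (log2 4.29 ± 0.57, adjusted p = 0.021), 33.9, 57.5 and 195 CPM in Dnmt3b KO (5.47 ± 0.60, adjusted p = 0.0011) and 136, 119 and 92.4 CPM in Dnmt1 KO (5.79 ± 0.68, adjusted p = 7.6e-05). No KO library reached down to WT.

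In Dnmt3b KO 61 of 12913 genes were called higher (0.472%) and 2 lower (0.0155%), or 0.488% in either direction. The count changed with the libraries used: it was 24 higher and 1 lower without Dnmt3b KO 12, 69 and 3 without Dnmt3b KO 11 and 118 and 6 without Dnmt3b KO 1+2. Without WT 1, 3, 6 or 7 it was 34 to 41 in either direction. The total was also larger with a covariate for Y-linked counts and smaller with WT and Dnmt3b KO alone, as given below. With Dnmt3b KO 1+2 as the only Dnmt3b KO library, in a fit added after seeing the data, 7 were called higher and 0 lower. Of the 17 Dnmt3b KO calls of named genes, 11 held without Dnmt3b KO 12 and 5 without both Dnmt3b KO 11 and 12: Sycp1, Asz1 (adjusted p = 0.0017), Hsf2bp (3.35, adjusted p = 0.0036), Dppa4 (3.08, adjusted p = 0.0036) and Rpl10l (adjusted p = 0.0044). Rpl10l, a ribosomal protein gene of the testis, had at most 0.0208 CPM in WT and 1.05, 0.972 and 14.9 CPM in Dnmt3b KO 1+2, 11 and 12. In that last fit Tex15 stood at 1.68 (adjusted p = 0.031), Tex19.1 at 3.92 (0.031), Hormad1 at 5.71 (0.12), Rec114 at 0.97 (0.19), Cntnap2 at 0.84 (0.71), Tnni3 at 0.84 (0.45), Ahcy at -1.77 (0.011) and Lgals1 at -1.27 (0.45). Of the erythroid lists 0 of 16 regulators, 0 of 15 heme genes, 0 of 12 iron genes and 0 of 19 membrane genes were called by edgeR or by DESeq2, with 1 higher and 3 lower, 1 and 1, 2 and 1, and 0 and 4 at an unadjusted p under 0.05. Their medians were 0.08, 0.13, 0.01 and 0.04, beside 0.01 for all genes. Over all 12913 genes, 1144 were higher and 798 lower at an unadjusted p under 0.05. Without Dnmt3b KO 11 and 12 no gene of these lists was called, and the medians were -0.11, -0.02, 0.02 and -0.07. Runx1 had 31.4, 24.997 and 25.5 CPM in Dnmt3b KO 1+2, 11 and 12, against a lowest WT value of 29.5 CPM (-0.92 ± 0.22, adjusted p = 0.055).

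Beside the germline genes above, Dppa4, a chromatin protein of pluripotent cells, was among the largest changes in Dnmt3b KO. It had 0, 0.673 and 1.31 CPM in WT and 7.92, 11.6 and 43.3 CPM in Dnmt3b KO (log2 4.52 ± 0.51, adjusted p = 0.0010), with 5.51 to 9.62 CPM in Dnmt3a KO and 29.1, 17.3 and 19.5 CPM in Dnmt1 KO (4.70 ± 0.77, adjusted p = 0.00078, and 0.030 without Dnmt1 KO 1). Hormad1 had 0, 0 and 0.936 CPM in WT and 23.0, 23.5 and 55.5 CPM in Dnmt3b KO (6.32 ± 0.79, adjusted p = 0.0023, but 0.013 without Dnmt3b KO 12 and 0.010 without WT 1). Rec114, a partner of the meiotic break machinery, had 5.70, 8.25 and 9.66 CPM in WT and 16.2, 18.6 and 45.5 CPM in Dnmt3b KO (1.77 ± 0.26, adjusted p = 0.0026, and 0.011 without WT 1). In each of these genes the lowest Dnmt3b KO library lay above the highest WT library, which the rule for naming them required.

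Tnni3, the cardiac troponin I, had 8.56, 12.9 and 16.7 CPM in WT and 23.6, 47.4 and 109 CPM in Dnmt3b KO 1+2, 11 and 12 (log2 2.26 ± 0.34, adjusted p = 0.0053). Its call was lost without any single WT library (adjusted p = 0.010 to 0.018). It had 26.9 to 36.6 CPM in Dnmt3a KO and 77.3, 61.7 and 30.2 CPM in Dnmt1 KO. Commd3 (1.09 ± 0.18, adjusted p = 0.0065) and Gm21887 (2.89 ± 0.44, adjusted p = 0.0056) were called as well and stood at 0.69 (adjusted p = 0.029) and 2.58 (adjusted p = 0.046) without Dnmt3b KO 12. The call of Commd3 was also lost without any single WT library, Dnmt3a KO 2 or 14 or Dnmt3b KO 11, and that of Gm21887 without any single WT library but WT 2 or without Dnmt3b KO 11.

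The 2 genes called lower in Dnmt3b KO were Ahcy and Lgals1. Ahcy, which clears the by-product of methyl transfer, had 14.8, 18.5 and 21.1 CPM in WT and 5.50, 5.49 and 5.91 CPM in Dnmt3b KO (log2 -1.66 ± 0.16, adjusted p = 2.3e-05). In the other cells of the same embryos it had 18.8 to 25.1 CPM in WT and 6.93 to 8.46 CPM in Dnmt3b KO, and the change did not differ detectably between the 2 kinds of cell (difference -0.03 ± 0.13). Ahcy lies near Dnmt3b on the same chromosome, and the part of sequence linked to the targeted allele in this drop was not tested. Lgals1, a galectin, had 32.5, 43.3 and 61.6 CPM in WT and 21.6, 20.9 and 13.6 CPM in Dnmt3b KO (-1.40 ± 0.22, adjusted p = 0.0037, and -1.21 with 0.034 without Dnmt3b KO 12). Its call was also lost in 7 other alternatives, among them a limit of 2% (adjusted p = 0.012) or 10% globin (0.053), cells with 5 to 10% globin only (0.011) and the fit of WT and Dnmt3b KO alone (0.015).

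Whether a KO changed a gene differently in primitive erythroid cells and in the other cells of the same embryos was tested as an interaction in 1 model. The other cells entered as 1 sum over all their cell types, so a shift in their proportions also enters the difference. The study reports broad shifts of these proportions in Dnmt1 KO, with extraembryonic ectoderm overrepresented, and their part here was not tested. In Dnmt1 KO 99 of 16437 genes (0.602%) had a more positive and 538 (3.27%) a more negative change in primitive erythroid cells under TMM scaling. The median over all genes was -0.63, and under RLE scaling, with a median of -0.25, the counts were 144 and 92, with 184 genes called under both. The split between the directions therefore depended on the scaling. In Dnmt3a KO 5 of 17336 genes differed, all more positive (0.0288%), and in Dnmt3b KO 3 were more positive (0.0173%) and 2 more negative (0.0115%). These last counts were unstable: with 1 library left out they ran from 0 to 24 in Dnmt3a KO, the latter without WT 1, and from 0 to 16 in Dnmt3b KO, again without WT 1, and without both Dnmt3b KO 11 and 12 they were 3 and 0.

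Clvs1 rose more in primitive erythroid cells than in the sum of the other cells in Dnmt1 KO. The other cells of the same embryos had 0.147 to 0.442 CPM in WT and 12.6 to 16.9 CPM in Dnmt1 KO, against 61.7 to 66.3 CPM in primitive erythroid cells. The difference of the log2 changes was 5.59 ± 0.58 (adjusted p = 5.1e-07) and 6.03 under RLE scaling. The drop of Hebp1 also differed from the change in the other cells. It had 18.96 to 41.1 CPM in the other cells of WT and 11.7 to 43.4 CPM in those of Dnmt1 KO, with a difference of -3.42 ± 0.62 (adjusted p = 0.0013, and -3.08 with 0.0084 under RLE). Urod differed by -1.14 ± 0.20 (adjusted p = 0.00044, and -0.76 with 0.0067 under RLE, below the size of a call). Ccne1 had 91.3 to 106 CPM in the other cells of WT and 64.7 to 95.4 CPM in Dnmt1 KO and differed by -2.23 ± 0.24 (adjusted p = 3.1e-06, and -1.85 with 0.00016 under RLE).

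Grb10 was down in both kinds of cell. The other cells had 152 to 238 CPM in WT and 1.25 to 3.001 CPM in Dnmt1 KO, and the difference of 1.74 ± 0.53 (adjusted p = 0.034) was not called. Apobec3, in contrast, had 2.25 to 4.06 CPM in the other cells of WT and 1.80 to 2.99 CPM in those of Dnmt1 KO, and its drop differed between the 2 kinds of cell (-3.65 ± 0.60, adjusted p = 7.8e-05, and -3.27 with 0.0015 under RLE). The change of Tmod1 did not differ detectably (0.01 ± 0.21, and 0.39 under RLE), with 7.17 to 11.8 CPM in the other cells of WT and 2.38 to 3.08 CPM in those of Dnmt1 KO.

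In Dnmt3a KO the genes with a more positive change in primitive erythroid cells included Tex19.1, with 17.4 to 65.9 CPM against 8.73 to 19.07 CPM in the other cells (difference 2.81 ± 0.30, adjusted p = 0.0047), and Cntnap2, with 4.48 to 5.37 CPM in the other cells against 4.04 to 5.81 CPM in WT (1.38 ± 0.20, adjusted p = 0.0047). In Dnmt3b KO Tex19.1 and Sycp1 had the same direction (2.64 ± 0.31 and 3.59 ± 0.52, both with an adjusted p of 0.0057). Several of these calls were lost when 1 library was left out: that of Tex19.1 in Dnmt3a KO without WT 2, 4, 5, 6 or 7 (2.75 to 2.92, adjusted p = 0.011 to 0.017), that of Cntnap2 without WT 3 to 7 or Dnmt3a KO 1, 2 or 14 (1.29 to 1.44, adjusted p = 0.012 to 0.030), and that of Tex19.1 in Dnmt3b KO without WT 2 to 7 or any Dnmt3b KO library (2.54 to 2.76, adjusted p = 0.012 to 0.036), and that of Sycp1 without WT 2, 3, 4, 6 or 7 or Dnmt3b KO 11 or 12 (3.48 to 7.52, adjusted p = 0.011 to 0.047).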

How the data were processed

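In all, 18 single-cell RNA libraries of E8.5 embryos were analysed from the UMI count matrices deposited by the authors, made with Cell Ranger 3.1.0 for 17 libraries and 5.0.0 for Dnmt3b KO 12 per the file headers. A combined human and mouse reference had been used for 4 libraries (WT 1, Dnmt3b KO 11 and Dnmt3a KO 1 and 13), and only the 31053 mouse genes were kept. Cells with at least 1500 mouse UMIs entered, with no filter on mitochondrial or ribosomal share. The members and gene lists were chosen with earlier results of these data known. Counts of member cells were summed per library, the 5 globin genes of the rule were removed, and all 4 groups were fitted together with edgeR 4.0.16 (R 4.3.3, quasi-likelihood test, TMM, filterByExpr) and Benjamini-Hochberg adjustment. A library needed 25 member cells. For Dnmt1 KO the minimum was lowered to 20 once the cell numbers were seen, since only 1 of its 3 libraries had 25. The interaction fit compared members with other cells of the same library. The fits were tested on simulated data. Doublets were scored with Scrublet (scanpy 1.11.5) at 0.8% per 1000 cells and removed in an alternative only, and between 0% and 12.3% of the members of a library were called doublets.

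Genes were named by a rule: for each KO and direction the 8 called genes with the largest change and a mean of at least 20 CPM in that KO or WT whose KO libraries all lay on one side of WT, 4 genes per direction of each interaction, the 3 targeted genes, the erythroid, heme, iron, membrane, globin and progenitor lists by role, and up to 4 called genes of each other list. Where 5 or fewer genes were called, all were named. Some genes that the rule picks are not reported here. Intervals of shares are Clopper-Pearson at 95% and, like limits from 3 counts, cover counting error only. Samples with the same replicate number did not deviate together in every pair (correlations of -0.08 to 0.07 between WT and Dnmt1 KO and of 0.36 and 0.45 between WT and Dnmt3a KO), so the main design has no block. Correlations between samples of different numbers were not computed. Alternatives covered scaling, DESeq2 1.42.0, filters, thinning, other globin thresholds, covariates, doublets and each library left out. Whether replicates came from separate litters is not given in the sources used here.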

Additional observations from a re-analysis of the deposited data

Results flagged for a closer look

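For named genes outside the rule, Dixon's test was applied to 56 groups of 4 or more libraries, and 2 libraries stood apart from their group, where chance flags about 1 in 20 groups. Mbd2 had 36.0 CPM in the primitive erythroid cells of WT 5, against 65.5 to 76.2 CPM in the other WT libraries. Rrm2 had 304 CPM in Dnmt3a KO 13, with 309 to 310 CPM in the other Dnmt3a KO libraries, so that its distance is small beside the WT range of 221 to 355 CPM.

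In 17 cases the change of a named gene in primitive erythroid cells differed from the change in the other cells of the same embryos by edgeR's interaction test, given as the difference of log2 changes. The other cells were again 1 sum over cell types, and the part of shifts in their proportions was not tested. In Dnmt1 KO it was 5.59 for Clvs1, 5.17 for Asz1, 5.70 for Plb1 and 4.27 for Trap1a. Plb1 had at most 0.234 CPM in WT and 14.1, 37.0 and 51.5 CPM in Dnmt1 KO 1, 2 and 3, whereas the other cells went from 0.0906 to 0.276 CPM in WT to 1.21 to 1.83 CPM. Trap1a had 61.7 to 145 CPM in the other cells of WT and 170 to 413 CPM in those of Dnmt1 KO, and its difference was called in 7 of 21 alternatives.

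The differences of -12.49 for Rassf3 and -12.32 for Prr5 rest on 0 UMIs in all 3 Dnmt1 KO libraries of primitive erythroid cells and are no bound. WT primitive erythroid cells had 1.76 to 6.38 and 2.25 to 7.03 CPM of these genes, and the other cells of Dnmt1 KO had 20.4 to 30.3 and 16.2 to 30.02 CPM. Those of Clvs1 and Asz1 rest on few WT UMIs and are no bound either. Fabp3, a fatty acid binding protein, differed by -4.64. It had 7.47 to 18.0 CPM in WT and 4.02, 12.3 and 14.2 CPM in Dnmt1 KO in primitive erythroid cells, while the other cells went from 8.35 to 30.1 CPM in WT to 97.3 to 432 CPM in Dnmt1 KO.

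In Dnmt3a KO the difference was 1.38 for Cntnap2, 1.75 for Tex15, 2.81 for Tex19.1, 4.46 for Lefty2 and 2.76 for Tsix. Lefty2 had at most 0.386 CPM in primitive erythroid cells, and its other cells had 0.138 to 22.8 CPM in WT and 0.106 to 2.90 CPM in Dnmt3a KO. Tsix is X-linked, and the Dnmt3a KO libraries were male while 6 of the 7 WT libraries were not. In Dnmt3b KO the difference was 5.13 for Asz1, 3.59 for Sycp1, 2.64 for Tex19.1, -1.43 for Rec114 and -2.70 for Gm26760. Rec114 rose in both kinds of cell, from 5.70 to 9.66 CPM in WT to 16.2 to 45.5 CPM in primitive erythroid cells and from 0.497 to 1.61 to 4.91 to 22.0 CPM in the others. None of these 10 differences was called in all 20 alternatives, and none of the 5 in Dnmt3b KO was called without the libraries labelled Dnmt3b KO 11 and 12.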

How the results depend on the processing

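Of the counts of calls, shares and compositions under an alternative, 210 kept within 1.5 times or 1 SD of the value given and 73 did not. Dnmt1 KO gave 184 called genes when thinned to the smallest library and 919 with a limit of 2% globin. Its count of genes that differ from the other cells was 236 under RLE scaling. Dnmt3a KO gave 30 called genes with DESeq2, 5 with no filter on low counts, 0 when thinned to the smallest library and 1 when thinned to the smallest outside Dnmt1 KO, 10, 1 and 0 at 2%, 10% and 20% globin, 12 with a covariate for Y-linked counts, 12 with WT and Dnmt3a KO alone and 17 with the replicate block. Dnmt3b KO gave 5 and 17 when thinned in the same ways, 30 and 1 at 10% and 20% globin, 29 with 5 to 10% globin only, 152 with the Y-linked covariate and 30 with WT and Dnmt3b KO alone. Its count of genes that differ from the other cells was 3 under RLE and 15 at 20% globin. Without both Dnmt3b KO 11 and 12, chosen after seeing the data, Dnmt3a KO gave 16 and Dnmt3b KO 7 called genes, and 3 and 0 genes differed from the other cells. The replicate block gave 474 genes in Dnmt1 KO, where the replicate numbers were not found to pair the samples with WT. For WT and Dnmt3a KO samples of the same number the correlations were 0.45 and 0.36, with no pairs of different numbers as a reference. WT 1 and Dnmt3a KO 1 also shared the combined reference. WT 2 and Dnmt3a KO 2 had the lowest median UMI counts per member cell of their groups (9736 and 7540). The part of these traits in the correlations was not tested. Leaving out 1 library gave 262 (without Dnmt1 KO 1) to 514 (without Dnmt3b KO 12), 2 to 18 (without Dnmt3b KO 12) and 25 (without Dnmt3b KO 12) to 124 (without Dnmt3b KO 1+2) called genes in Dnmt1, Dnmt3a and Dnmt3b KO, and 391 (without Dnmt1 KO 2) to 665, 0 to 24 and 0 to 16 genes that differ from the other cells. At 20% globin the mean share of cells was 0.841%, 0.0277%, 1.10% and 0.814% for WT, Dnmt1, Dnmt3a and Dnmt3b KO. It was 2.91% at 2% and 0.117% at 10% in Dnmt1 KO and 5.92% at 10% in Dnmt3b KO. Hbb-y was 65.4% and 67.2% of beta-like UMIs at 20% in Dnmt3a and Dnmt3b KO. Hba-x was 84.3% and 45.6% of alpha-like UMIs at 10% and 20% in WT and 58.7% at 10% in Dnmt1 KO. It was 71.4% and 77.0% at 20% in Dnmt3a and Dnmt3b KO. Cells with at least 20% globin numbered 7, 1 and 3 in WT 3, 4 and 7 and 3 in Dnmt1 KO 2. The adult-globin cells of these libraries had the same numbers, with Hba-x at no more than 0.0373% of their UMIs. Dnmt1 KO 1 and 3 had 0 cells with at least 20% globin. With 1 library left out the mean shares were 7.72% to 10.3%, 0.868% to 1.27%, 8.28% to 11.6% and 7.93% to 9.86% in WT, Dnmt1, Dnmt3a and Dnmt3b KO. Hbb-y was then 18.8% to 26.3%, 25.4% to 34.7%, 37.1% to 47.6% and 35.5% to 52.4%, and Hba-x 86.2% to 87.1%, 80.0% to 86.7%, 84.1% to 85.3% and 84.4% to 85.8%. Of 84 calls of named genes 26 held in every alternative, and 1 value changed sign, that of Lefty2 in Dnmt3a KO against the other cells at 20% globin (-0.089). The causes were not tested. Too few cells left no value for Dnmt1 KO calls at 10% and 20% globin or with the cell quality filter, for its difference from other cells at 20%, for Hbb-y at 20% in WT and at 10% and 20% in Dnmt1 KO, and for Hba-x at 20% in Dnmt1 KO. With a minimum of 10 cells, the quality filter (at most 30% mitochondrial and 35% ribosomal UMIs), chosen after seeing the data, gave 307 genes in Dnmt1 KO and cells with 5 to 10% globin gave 358. Dnmt3b KO shares too few replicate numbers with WT for a block. The 3 Dnmt1 KO libraries, with 22, 20 and 43 cells, set the limit of depth.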

Other observations

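Other genes called in the primitive erythroid cells of Dnmt1 KO are given here as single values, chosen after they were seen. Mthfd2, a mitochondrial folate enzyme, had 91.9, 104 and 128 CPM (lowest, median, highest) in WT and 294, 311 and 286 CPM in Dnmt1 KO 1, 2 and 3 (edgeR log2 1.46 ± 0.16, adjusted p = 5.2e-06). Atf5, a transcription factor of the stress response, had 5.44, 8.54 and 13.6 CPM in WT and 84.3, 66.7 and 48.0 CPM in Dnmt1 KO. Ddit3, which encodes CHOP, had 10.3, 14.9 and 18.4 CPM in WT and 56.2, 81.5 and 87.0 CPM in Dnmt1 KO. Psph, of serine synthesis, had 46.5, 54.7 and 68.8 CPM against 172, 138 and 119 CPM, and Eif4ebp1, a brake on translation, 215, 236 and 249.8 CPM against 548, 568 and 547 CPM.

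Among the genes called lower, Idi1, of sterol synthesis, had 93.0, 101.4 and 113 CPM in WT and 35.1, 24.7 and 24.9 CPM in Dnmt1 KO. Plin2, which coats lipid droplets, had 130, 171 and 211 CPM in WT and 62.3, 42.0 and 37.3 CPM in Dnmt1 KO, and Fabp5, a fatty acid binding protein, 305, 330.2 and 362 CPM against 159.7, 109 and 124 CPM. Mnd1, a meiotic recombination gene on none of the lists, had 20.3, 25.1 and 27.2 CPM in WT and 125, 101.3 and 126 CPM in Dnmt1 KO. Usp26, an X-linked deubiquitinase of the testis, had at most 2.37 CPM in WT and 151, 121 and 133 CPM in Dnmt1 KO.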
